A study of Arabidopsis thaliana with 4 samples.

Results

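Peroxisomal fat breakdown, the glyoxylate cycle and the step into gluconeogenesis were followed through 10 genes, chosen by gene identifier from the 32538 genes of the deposited expression table. They were ICL, MLS, CSY2, CSY3 and PMDH2 of the glyoxylate cycle, PCKA of gluconeogenesis, and ACX3, ACX4, MFP2 and KAT2 of beta-oxidation, and all 10 passed the filter on low values. Poly(A) RNA was sequenced from hypocotyls, the seedling stem below the cotyledons, of dark-grown Arabidopsis thaliana. The 2 genotypes, with 2 libraries each that the series' design text calls biological duplicates, were the wild type accession Col-0 and shr-2, which per the labels is a mutant in the Col-0 ecotype. The mutated gene, SHORT-ROOT (SHR), encodes a transcription factor that specifies the endodermis. Seedlings of both genotypes germinated for 24 hours on MS medium, stayed in the dark at 22 °C, and were 5 days old when their hypocotyls were cut off. The labels do not give how many seedlings went into a library.

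Levels are FPKM, fragments counted per unit of transcript length and of sequencing depth, and changes are log2 fold changes of FPKM + 1, shr-2 over Col-0, tested with limma across the 19920 genes whose mean reached 1 FPKM. A gene passed, and is said to have risen or fallen, at a Benjamini-Hochberg adjusted p under 0.05. With 2 libraries per genotype, a p-value weighs the genotype difference against the spread between these libraries. In limma that spread is moderated by the spread of all genes tested. From the median of the low values inside a preset window, which bounds the estimate, 1 fragment was worth about 0.0433 to 0.0455 FPKM in a transcript of 1 kb. Replicates correlated across genes at r = 0.984 and 0.981. The groups were taken from the library titles. Other fields go against them, since the mutant libraries carry an SCL28 overexpressor as genotype and all 4 libraries the root tip as tissue. SHR stood at 28.4 and 28.9 FPKM in the libraries labelled Col-0 and at 2.57 and 3.45 FPKM in those labelled shr-2. Of 10 root markers, 0 reached a mean of 1 FPKM, and their highest value was 0.345 FPKM.

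Germinating oilseeds burn stored triacylglycerol. Fatty acids released from oil bodies enter the peroxisome, where each round of beta-oxidation runs through an acyl-CoA oxidase, a multifunctional protein with hydratase and dehydrogenase activity, and a thiolase that splits off acetyl-CoA. The glyoxylate cycle joins acetyl-CoA units into organic acids without losing carbon as carbon dioxide, through its own enzymes isocitrate lyase and malate synthase, and phosphoenolpyruvate carboxykinase opens the way from these acids to sugar. In oilseed seedlings the pathway is known for its high activity during establishment and its decline afterwards.

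Most enzymes of this route act inside the peroxisome, and their coding sequences carry the address. A type 1 signal is made by the last 3 codons before the stop, and a type 2 signal by 9 codons near the start. Of the 10 genes, 4 carried a type 1 signal, 4 a type 2 signal, and PCKA and ACX3 neither by the patterns searched. The type 1 pattern was serine or alanine, then arginine or lysine, then leucine or methionine, and 118 of 26904 coding genes (0.439%) held it. The type 2 pattern, settled with the sequences of the 10 genes in view, was arginine, 1 of 7 residues, any 5 residues, histidine and leucine within the first 50 codons, held by 50 of the 26904 (0.186%). A match describes the letters and not the place of the protein. The ends of the type 1 coding sequences are shown because they set ICL, MLS, ACX4 and MFP2 side by side, read 5′ to 3′ from the RefSeq TAIR10.1 genome with the 3 codons in capitals and the stop codon last.
ICL (chr3:7652789-7652818, minus strand): agccttgtggtcgccaagTCAAGAATGtaa
MLS (chr5:1032276-1032305, minus strand): cactaccctatcaatgtcTCAAGGCTCtga
ACX4 (chr3:19225653-19225682, minus strand): ttcaaaccggctacacgtAGCCGTCTCtaa
MFP2 (chr3:2165980-2166009, plus strand): cccgtgaaacaagccagcTCACGGTTGtaa
The type 2 stretches of CSY2, CSY3, PMDH2 and KAT2 are shown from the same genome with the 9 codons in capitals.
CSY2 (chr3:21727399-21727440, minus strand): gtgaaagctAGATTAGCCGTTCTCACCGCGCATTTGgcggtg
CSY3 (chr2:17805932-17805973, minus strand): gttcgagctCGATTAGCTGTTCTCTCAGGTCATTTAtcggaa
PMDH2 (chr5:2995492-2995533, minus strand): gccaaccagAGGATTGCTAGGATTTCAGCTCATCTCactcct
KAT2 (chr2:14050933-14050974, minus strand): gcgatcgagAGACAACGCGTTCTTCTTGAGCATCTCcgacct
The type of signal did not sort the genes by their change. Type 1 genes included the 2 steepest rises, ICL and MLS, and also the 1 fall, ACX4, while the type 2 genes ranged from CSY2 at a log2 fold change of 0.11 to PMDH2 at 0.90.

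Of the 10 genes, 6 rose and 1 fell in shr-2, and 3 did not pass. Over all 19920 genes tested, 27.6% were called in either direction, 13.9% higher and 13.7% lower. The median log2 fold change of the 10 was 0.53, beside 0.01 over all genes tested. The authors' deposited table also called 7 of the 10, with 6 of them higher, where it called 24.8% of the genes it tested. In all 10 genes the libraries of the genotypes did not overlap, and in 9 of the 10 both shr-2 libraries lay above both Col-0 libraries. Groups that do not overlap were common, at 66.2% of the genes tested. Some of the 7 calls were lost whichever library was left out, that of PCKA each time, while ICL, MLS, PMDH2 and MFP2 kept theirs.

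**Figure D1:**
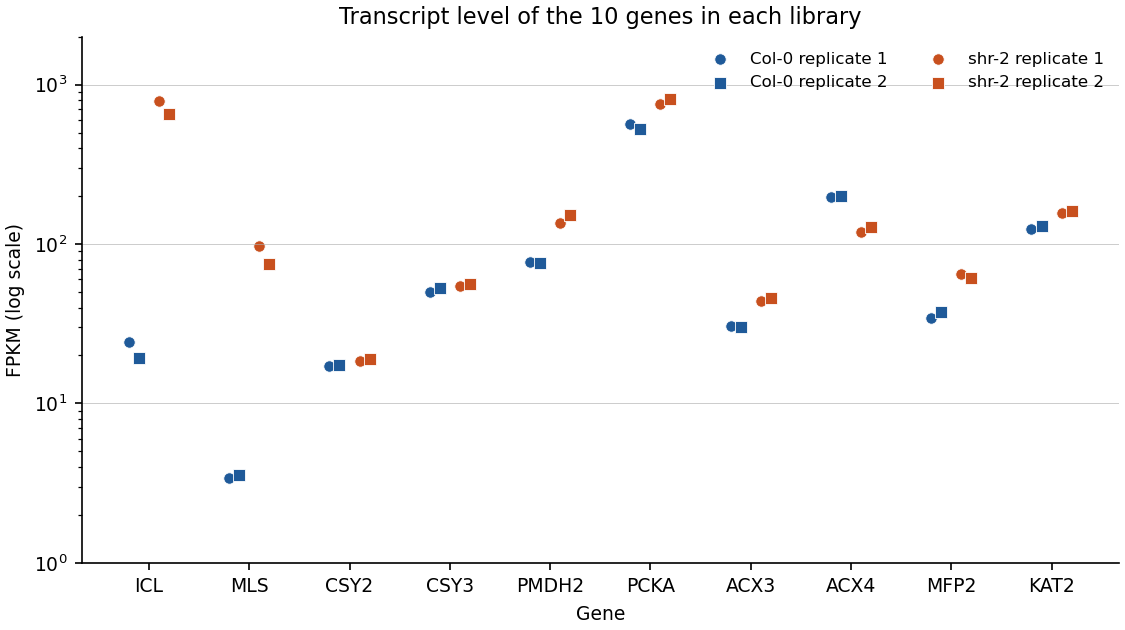
FPKM on a log axis for each of the 10 genes, with 1 point per library: blue for Col-0, orange for shr-2, circles for replicate 1 and squares for replicate 2. ICL rose from 24.2 and 19.4 FPKM to 788 and 653 FPKM, MLS from 3.40 and 3.57 to 97.3 and 74.9 FPKM, and ACX4 is the gene whose shr-2 points lie below its Col-0 points.

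Among the 10 genes, the enzymes that belong to the glyoxylate cycle alone had the largest changes. ICL (AT3G21720, chr3:7652487-7656053, minus strand), isocitrate lyase, which splits isocitrate into succinate and glyoxylate, stood at 24.2 and 19.4 FPKM in Col-0 and at 788 and 653 FPKM in shr-2. Both shr-2 libraries lay far above both Col-0 libraries, and the ratio of a mutant to a wild-type library ran from 27 to 40.6. The log2 fold change was 4.98 (SE 0.15, limma, adjusted p = 0.000203), and ICL ranked 10 of 19920 genes by size of increase. By level it moved from rank 7140 among all genes in Col-0 to rank 67 in shr-2.

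MLS (AT5G03860, chr5:1032099-1034973, minus strand), malate synthase, which joins glyoxylate with acetyl-CoA into malate, read 3.40 and 3.57 FPKM in Col-0 and 97.3 and 74.9 FPKM in shr-2. The genotypes stood far apart, and the spread within shr-2 was the larger one. Its log2 fold change was 4.27 (SE 0.15, limma, adjusted p = 0.00022), which ranked 17 of 19920. The Col-0 values rest on an estimated 156 and 167 fragments. ICL exceeded MLS in every library, by 7.11 and 5.45 times in Col-0 and by 8.10 and 8.71 times in shr-2, a ratio slightly higher in shr-2 and without overlap. The genes passed the test whichever library was left out, at adjusted p from 0.000553 to 0.00888 for each.

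In these whole-organ samples fewer cells of a type and less RNA per cell cannot be told apart. Markers of the endodermis moved with the genotype, with 9 of 9 lower in shr-2 beside 13.7% of all genes. Their summed level was 573 and 694 FPKM in Col-0 and 20.7 and 22.7 FPKM in shr-2. The authors' deposited table called 6 of the 9, all lower. Seed storage and oil body genes, listed together with EM1 and EM6, were near 0, and their transcripts do not measure the reserves left. Of these, 13 of 14 stayed under a mean of 1 FPKM, outside the limma test, and HSD1 was listed at 0 in every library. Their summed level was 1.18 and 1.41 FPKM in Col-0 and 2.94 and 4.16 FPKM in shr-2. The authors' deposited table, which did not test most of them, called CRU3 and EM1, both higher in shr-2. CRU3 had a mean of 0 FPKM in Col-0 and 0.426 FPKM in shr-2, and EM1 0.282 and 1.05 FPKM. Cotyledon and leaf polarity genes summed to 158 and 167 FPKM in Col-0 and 183 and 197 FPKM in shr-2. Of 9 tested, 3 were higher and 1 lower, which is 44.4% called beside 27.6% of all genes. The authors' deposited table called 5 of the 9, with 4 higher, where it called 24.8% of the genes it tested. The part of the endodermis and of the cotyledon genes in these rises, and in the changes described after them, was not tested.

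The promoters of ICL and MLS are shown because these genes moved together and most. They are the 250 bases before the annotated gene start in TAIR10.1, 5′ to 3′, with motif matches in capitals.
ICL (chr3:7656054-7656303, minus strand): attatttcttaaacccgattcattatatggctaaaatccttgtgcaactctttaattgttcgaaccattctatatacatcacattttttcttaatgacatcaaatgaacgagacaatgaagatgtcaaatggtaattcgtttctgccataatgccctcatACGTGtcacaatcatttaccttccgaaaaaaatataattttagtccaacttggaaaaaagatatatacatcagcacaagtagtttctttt
MLS (chr5:1034974-1035223, minus strand): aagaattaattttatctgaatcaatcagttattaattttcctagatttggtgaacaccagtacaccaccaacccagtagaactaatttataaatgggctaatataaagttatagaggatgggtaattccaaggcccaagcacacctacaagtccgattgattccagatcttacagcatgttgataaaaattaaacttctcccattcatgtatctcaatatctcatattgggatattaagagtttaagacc
On both strands, ACGTG, the core of many light and abscisic acid response elements, was found once in the ICL window, 90 bases before the gene start, and in 22.9% of 27443 promoters of the same length. The full G-box CACGTG, which contains that core, was in 6.49% of promoters, TATCCA in 13.6% and GATAAG in 12.3%. MLS held none of these letters in this window. Among the 10 genes, 1 held CACGTG (CSY3), 3 held ACGTG (ICL, CSY3 and PCKA), 3 held TATCCA (CSY3, PMDH2 and MFP2) and 4 held GATAAG (CSY3, PCKA, ACX3 and MFP2).

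The genes of citrate synthase, which feeds acetyl-CoA into the cycle, did not pass. CSY2 (AT3G58750, chr3:21724306-21728137, minus strand), one peroxisomal isoform, read 17.3 and 17.3 FPKM in Col-0 and 18.4 and 19.0 FPKM in shr-2. CSY3 (AT2G42790, chr2:17802841-17806073, minus strand), the other, read 49.8 and 52.8 FPKM in Col-0 and 54.6 and 56.4 FPKM in shr-2. Both were slightly higher in shr-2 without overlap, by 8.15% and 8.17% of the mean. The log2 fold change was 0.11 with a 95% interval from -0.12 to 0.33 for CSY2 (limma, adjusted p = 0.417) and 0.11 with an interval from -0.11 to 0.34 for CSY3 (adjusted p = 0.402). The intervals leave no room for a rise of the size seen in ICL or MLS. CSY3 exceeded CSY2 by 2.88 and 3.05 times in Col-0 and by 2.97 and 2.97 times in shr-2. CSY1, a further peroxisomal citrate synthase gene, was listed at 0 in all libraries. CSY3 shares 198 bases with AT2G09400, an antisense RNA at 8.62 and 6.96 FPKM in Col-0 and 7.63 and 16.7 FPKM in shr-2. The library kit keeps the strand, but the use of strand in the counting is a point not given in the sources used here.

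PMDH2 (AT5G09660, chr5:2993411-2995784, minus strand), a peroxisomal malate dehydrogenase that interconverts malate and oxaloacetate and recycles the NADH of beta-oxidation, read 77.1 and 76.3 FPKM in Col-0 and 136 and 152 FPKM in shr-2. The Col-0 libraries nearly coincided, and both shr-2 libraries lay well above them, a rise of 88.3% in the mean. The log2 fold change was 0.90 (SE 0.10, limma, adjusted p = 0.00386; 0.0115 to 0.0452 with any library left out). Its isoform PMDH1 (AT2G22780) read 38.3 and 42.9 FPKM in Col-0 and 50.6 and 52.2 FPKM in shr-2, higher in shr-2 but short of the threshold at a log2 fold change of 0.34 (limma, adjusted p = 0.0613). PMDH2 made up 66.8 and 64.0% of the summed peroxisomal malate dehydrogenase FPKM in Col-0 and 72.9 and 74.5% in shr-2.

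PCKA (AT4G37870, chr4:17802690-17806705, minus strand; PCK1 in RefSeq), the cytosolic phosphoenolpyruvate carboxykinase that turns oxaloacetate into phosphoenolpyruvate, was already abundant in the wild type. It read 569.5 and 530.5 FPKM in Col-0 and 753 and 819 FPKM in shr-2, and the mutant libraries were the higher ones. The mean rose by 42.9%, a log2 fold change of 0.51 (SE 0.11, limma, adjusted p = 0.0278). With any 1 library left out the adjusted p was 0.0746 to 0.227, and the call was lost each time. Without the filter on low values it was also lost, at adjusted p = 0.0584. PCK2, its close copy, was at most 0.125 FPKM in any library. PCKA exceeded ICL by 23.6 and 27.3 times in Col-0, whereas in shr-2 it stood at 0.956 and 1.25 times ICL, so the replicates do not separate them in shr-2.

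**Figure D2:**
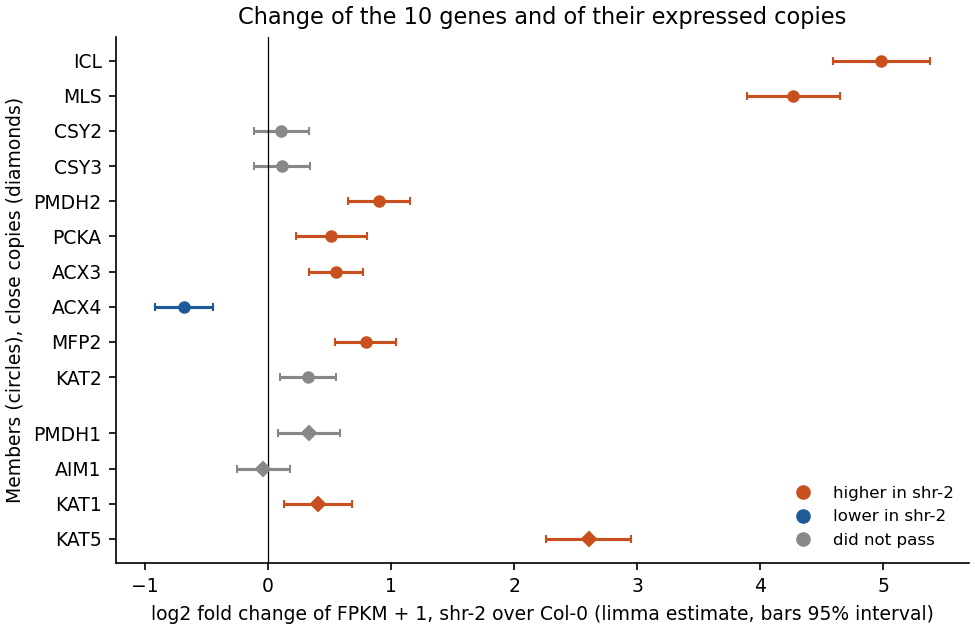
Log2 fold change of FPKM + 1 (shr-2 over Col-0) with its 95% interval from limma, for the 10 genes (circles) and their expressed close copies (diamonds), coloured by call. ICL at 4.98, MLS at 4.27 and KAT5 at 2.61 stand to the right of all the others, ACX4 at -0.68 is the call on the left, and CSY2, CSY3, KAT2, PMDH1 and AIM1 did not pass.

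The 4 beta-oxidation genes did not move as a block. ACX3 (AT1G06290, chr1:1922208-1926278, plus strand), an acyl-CoA oxidase with a preference for medium-chain substrates, read 30.7 and 30.3 FPKM in Col-0 and 44.2 and 46.1 FPKM in shr-2. Both pairs of replicates were tight and apart. Its log2 fold change was 0.55 (SE 0.09, limma, adjusted p = 0.0104), and without a library the call held in 1 of 4 cases, that without shr-2 replicate 1, with adjusted p from 0.0431 to 0.0722. A copy, AT3G06690, matches 677 bases of ACX3 at 98.8% identity and read 2.54 and 3.45 FPKM in Col-0 and 2.96 and 3.20 FPKM in shr-2. ACX6, another copy, was at most 0.0937 FPKM. Reads shared with these copies could be assigned either way.

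ACX4 (AT3G51840, chr3:19225360-19229341, minus strand), the oxidase for short-chain acyl-CoA, was the gene that fell. It read 199 and 199 FPKM in Col-0 and 119.5 and 128 FPKM in shr-2. The Col-0 libraries were almost equal and both mutant libraries lay below them, with a mean lower by 37.8% (limma, log2 fold change -0.68, standard error 0.09, adjusted p = 0.00683). The call was lost without Col-0 replicate 1 and without Col-0 replicate 2, where the adjusted p reached 0.0641, and held without either shr-2 library.

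MFP2 (AT3G06860, chr3:2161735-2166357, plus strand), a multifunctional protein that carries out the middle steps of the round, read 34.3 and 37.7 FPKM in Col-0 and 64.8 and 61.2 FPKM in shr-2, with a clear gap between the genotypes. Its mean rose by 75.2%, a log2 fold change of 0.79 (SE 0.10, limma, adjusted p = 0.00517; 0.0221 to 0.0481 with any library left out). AIM1 (AT4G29010), the other multifunctional protein, read 65.6 and 67.3 FPKM in Col-0 and 64.9 and 64.6 FPKM in shr-2, a log2 fold change of -0.04 with a 95% interval from -0.25 to 0.18 (limma, adjusted p = 0.779). The intervals of the 2 genes do not meet. MFP2 was 0.523 and 0.560 times AIM1 in Col-0 and 0.998 and 0.948 times AIM1 in shr-2.

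KAT2 (AT2G33150, chr2:14047478-14051400, minus strand; PED1 in the deposited table), the main peroxisomal thiolase of seedlings, read 124 and 130.1 FPKM in Col-0 and 158 and 161 FPKM in shr-2. Both mutant libraries were higher, by 25.3% in the mean, but the gene fell short of the threshold (limma, log2 fold change 0.32, 95% interval 0.10 to 0.55, adjusted p = 0.0522), and the authors' deposited table gives q = 0.156. The sister gene KAT5 (AT5G48880), which in Arabidopsis makes both a peroxisomal and a cytosolic thiolase, read 1.133 and 1.20 FPKM in Col-0 and 13.4 and 11.04 FPKM in shr-2. It was near the filter in the wild type and clearly present in the mutant, with a log2 fold change of 2.61 (SE 0.13, limma, adjusted p = 0.000617; 0.00158 to 0.0156 with any library left out), and it ranked 93 by size of increase. Of its 4 annotated coding models, 3 hold a type 2 signal, and the FPKM does not separate them. KAT5 shares 160 bases with AT5G48870 on the opposite strand, which read 64.8 and 54.9 FPKM in Col-0 and 65.1 and 57.8 FPKM in shr-2. KAT1 (AT1G04710), the remaining thiolase, read 6.47 and 7.38 FPKM in Col-0 and 9.46 and 9.53 FPKM in shr-2 (limma, log2 fold change 0.41, adjusted p = 0.048), a call lost whichever library was left out, at adjusted p from 0.110 to 0.213, and without the filter on low values, at 0.0727.

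Within enzyme families the make-up shifted in the oxidases, multifunctional proteins, thiolases and malate dehydrogenases. These shares are descriptions with no test. The summed FPKM of the 6 acyl-CoA oxidase genes was 411 and 423 in Col-0 and 386 and 422 in shr-2, so the total overlapped between genotypes. Inside that total ACX4 went from 48.4 and 47.1% to 31.0 and 30.4%, and ACX3 from 7.48 and 7.15% to 11.5 and 10.9%. ACX1, which prefers long-chain substrates, went from 26.5 and 27.5% to 39.1 and 39.1%. KAT2 made up 94.2 and 93.8% of the thiolase FPKM in Col-0 and 87.3 and 88.7% in shr-2, while KAT5 went from 0.860 and 0.863% to 7.44 and 6.09%. Over the 10 genes together the FPKM summed to 1129 and 1097 in Col-0 and 2233 and 2170.1 in shr-2. ICL supplied 2.14 and 1.77% of that sum in Col-0 and 35.3 and 30.1% in shr-2.

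**Figure D3:**
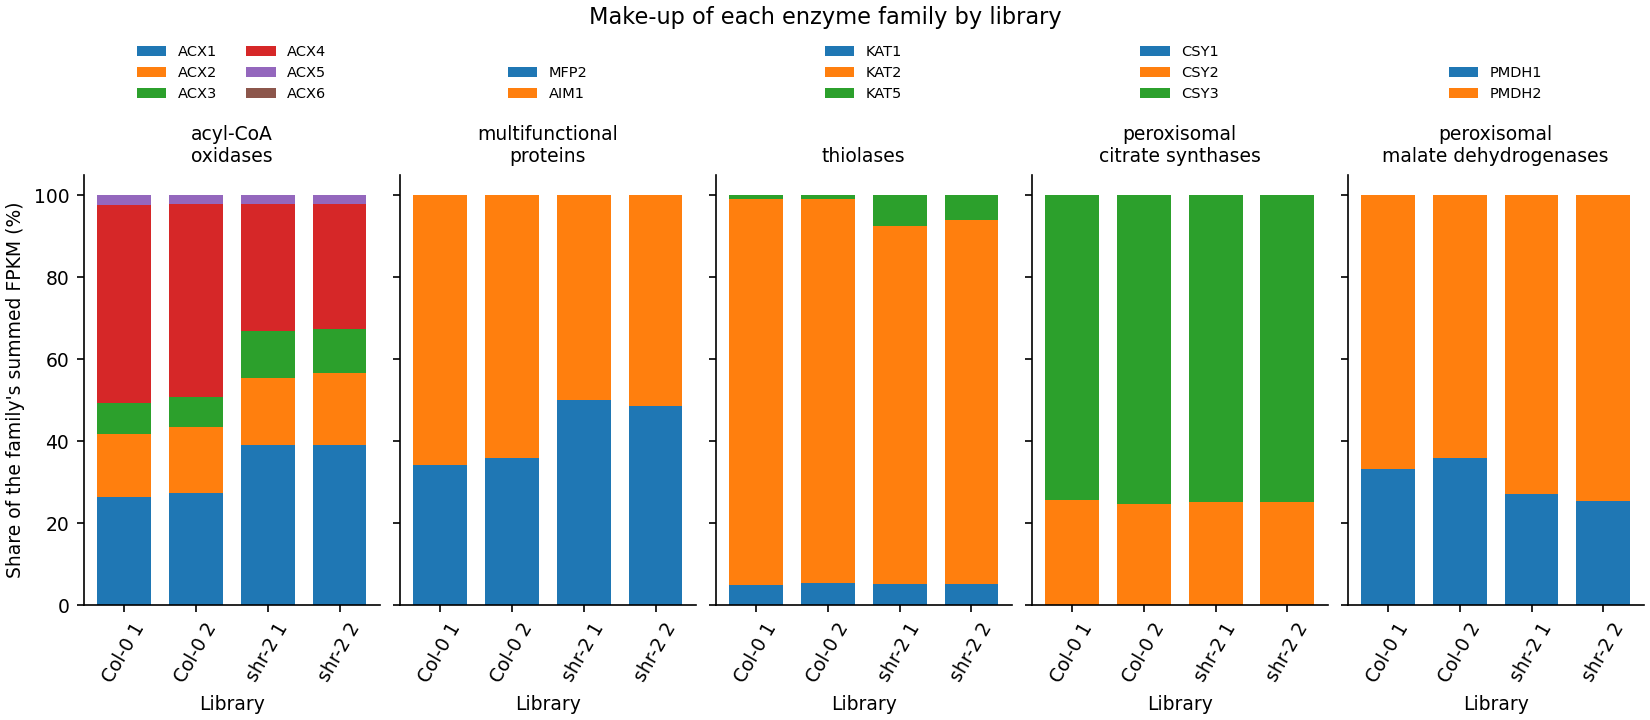
Share of each gene in the summed FPKM of its enzyme family, in percent, with 1 stacked bar per library and 1 panel per family. ACX4 shrinks from 48.4 and 47.1% of the acyl-CoA oxidases to 31.0 and 30.4%, MFP2 grows from 34.3 and 35.9% to 49.96 and 48.7% of the multifunctional proteins, KAT5 appears among the thiolases in shr-2, and the citrate synthases look alike in all libraries.

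The order of levels among the 10 genes differed between genotypes. In Col-0 PCKA was highest, followed by ACX4, KAT2, PMDH2, CSY3, MFP2, ACX3, ICL, CSY2 and MLS. Of the neighbours in that order, ICL and CSY2 lay 24.2 and 19.4 against 17.3 and 17.3 FPKM, and every pair of neighbours was separated in all libraries. In shr-2 PCKA and ICL overlapped at the top, and KAT2, PMDH2, ACX4, MLS, MFP2, CSY3, ACX3 and CSY2 followed without overlap between neighbours. ICL stood at 0.195 and 0.149 times KAT2 in Col-0 and at 4.99 and 4.06 times KAT2 in shr-2.

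Around the 10 genes, 91 further genes of the pathway and of the peroxisome were read out in 8 lists. Of these, 86 could be tested, 28 rose, 5 fell and 53 did not pass, which is 38.4% called beside 27.6% of all genes, with a median log2 fold change of 0.22. Among those named, PPDK, ECI1, AIM1, CAT2 and GLO1 share 10 to 95 bases with a neighbouring gene, where the assignment of reads is uncertain. The count depended on single libraries: 5 passed with Col-0 replicate 1 or with Col-0 replicate 2 left out, 23 with shr-2 replicate 1 left out and 17 with its replicate 2 left out.

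By number of genes, gluconeogenesis held more rises than any other of the 8 lists, which differ in size. Its 14 tested genes were PPDK and genes of the cytosolic route from phosphoenolpyruvate to hexose phosphate. Of these, 10 rose, 1 fell, which was PPDK, and 3 did not pass, with a median log2 fold change of 0.62. That is 78.6% called beside 27.6% of all genes. The share was higher in the smaller lists of photorespiration, at 83.3%, and of peroxide removal, at 80%. The authors' deposited table called 8 of the 16 listed genes of gluconeogenesis, with 7 higher. It did not test PCK2 and FBA5, and it called 24.8% of the genes it tested. CYFBP (AT1G43670), the cytosolic fructose-1,6-bisphosphatase that commits carbon to sucrose, read 20.3 and 19.2 FPKM in Col-0 and 32.7 and 34.0 FPKM in shr-2 (limma, log2 fold change 0.73, adjusted p = 0.00528). Both shr-2 libraries lay above both Col-0 libraries. GAPC2 (AT1G13440), a cytosolic glyceraldehyde-3-phosphate dehydrogenase, read 384 and 397 FPKM in Col-0 and 642 and 686 FPKM in shr-2 (log2 fold change 0.76, limma, adjusted p = 0.00685). CTIMC (AT3G55440), the cytosolic triose phosphate isomerase, read 219 and 226 FPKM in Col-0 and 362 and 350.2 FPKM in shr-2 (log2 fold change 0.67, limma, adjusted p = 0.00732). These enzymes except CYFBP also serve glycolysis in the other direction. PPDK (AT4G15530), pyruvate, orthophosphate dikinase, which makes phosphoenolpyruvate from pyruvate, went the other way, from 35.4 and 31.9 FPKM to 19.4 and 21.5 FPKM (limma, log2 fold change -0.69, adjusted p = 0.00997). The 11 calls of the list dropped to 1 with either Col-0 replicate left out, to 9 with shr-2 replicate 1 left out and to 6 with its replicate 2 left out, and CYFBP passed in each of the 4 cases.

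Partners of the glyoxylate cycle moved less than ICL and MLS. Of 12 tested, 4 rose, 0 fell and the other 8 missed the threshold, at a median log2 fold change of 0.28. That is 33.3% called, near the 27.6% of all genes. The authors' deposited table called 4 of the 14 listed genes, all 4 higher, and did not test CSY1 and CSY5. It called 24.8% of the genes it tested. SFC1 (AT5G01340), a mitochondrial carrier named for the exchange of succinate and fumarate, read 7.41 and 6.53 FPKM in Col-0. In shr-2 it read 12.7 and 13.005 FPKM (limma, log2 fold change 0.80, adjusted p = 0.00654). SDH1-1 (AT5G66760), the flavoprotein subunit of succinate dehydrogenase, read 41.7 and 40.0 FPKM in Col-0 and 60.3 and 62.5 FPKM in shr-2 (log2 fold change 0.58, limma, adjusted p = 0.00925). The succinate made by isocitrate lyase is used in the mitochondrion, where succinate dehydrogenase oxidises it. FUM1 (AT2G47510), mitochondrial fumarase, read 42.9 and 49.5 FPKM in Col-0 and 63.9 and 65.9 FPKM in shr-2 (log2 fold change 0.48, limma, adjusted p = 0.0273), and shares 91.2% identity over 1437 bases with AT5G50950, which stayed at or under 2.47 FPKM. The list's 4 calls became 1 without Col-0 replicate 1, 0 without its replicate 2, 2 without shr-2 replicate 1 and 1 without its replicate 2.

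Beta-oxidation outside the 4 genes was called at a share near that of all genes, 33.3% beside 27.6%. Among 18 tested genes there were 5 rises and 1 fall, and 12 missed the threshold, at a median log2 fold change of 0.14. Besides KAT5 and KAT1, the rises included ECI3 (AT4G14440), an enoyl-CoA isomerase of the kind that handles unsaturated fatty acids, which read 63.9 and 63.8 FPKM in Col-0 and 106 and 110.4 FPKM in shr-2 (limma, log2 fold change 0.75, adjusted p = 0.00437). ACX1 (AT4G16760) read 109 and 116 FPKM in Col-0 and 151 and 165 FPKM in shr-2 (log2 fold change 0.48, limma, adjusted p = 0.0232). ECI1 (AT1G65520), another isomerase of that family, fell from 26.9 and 26.96 FPKM to 17.1 and 18.5 FPKM (log2 fold change -0.57, limma, adjusted p = 0.0113). The authors' deposited table called ACX1 (q = 0.0147) but not ECI1 (q = 0.351). By the limma calls, oxidases and isomerases each held a gene that rose and a gene that fell. Without Col-0 replicate 1, Col-0 replicate 2 or shr-2 replicate 1 the 6 calls became 2, and without shr-2 replicate 2 they became 3, with KAT5 and ECI3 passing each time.

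Upstream, of 6 tested genes of oil breakdown and glycerol use 0 rose, 1 fell and 5 did not pass. That is 16.7% called beside 27.6% of all genes, with 13.9% of all genes higher, and with so few genes it does not set the list apart. The list had a median log2 fold change of -0.06. At an unadjusted p under 0.05 there were 2 of the 6 in limma, and the authors' deposited table called 1, lower in shr-2. SDP1 (AT5G04040), the main triacylglycerol lipase of seedlings, read 29.6 and 27.3 FPKM in Col-0 and 17.8 and 17.5 FPKM in shr-2, lower in both mutant libraries (limma, log2 fold change -0.66, adjusted p = 0.00759; 0.036 to 0.0648 with a library left out, lost without Col-0 replicate 1). Of the 3 peroxisome carriers 0 passed in limma, 0 had an unadjusted p under 0.05 and the authors' deposited table called 0. PXN (AT2G39970), which carries NAD, read 38.7 and 42.8 FPKM in Col-0 and 47.8 and 48.4 FPKM in shr-2, and PNC2 (AT5G27520), an ATP carrier, read 28.7 and 26.0 FPKM in Col-0 and 26.6 and 24.9 FPKM in shr-2.

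Few genes that build and divide peroxisomes passed. Of 22 peroxins and peroxisomal proteases 1 rose, 1 fell and 20 did not pass, which is 9.09% called beside 27.6% of all genes, with a median log2 fold change of 0.05. Their summed FPKM was 719 and 735 in Col-0 and 697 and 739 in shr-2, so the genotypes overlapped. PEX11C (AT1G01820), of a family that acts in peroxisome proliferation, read 55.1 and 53.6 FPKM in Col-0 and 37.8 and 34.0 FPKM in shr-2, lower in both mutant libraries (log2 fold change -0.59, limma, adjusted p = 0.0123). Its call held without shr-2 replicate 1 and was lost without any other library, at adjusted p up to 0.0853. Of the 22 genes, 0 passed in limma with either Col-0 replicate left out. With all libraries, 4 of the 22 had an unadjusted p under 0.05, and the authors' deposited table called 2.

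**Figure D4:**
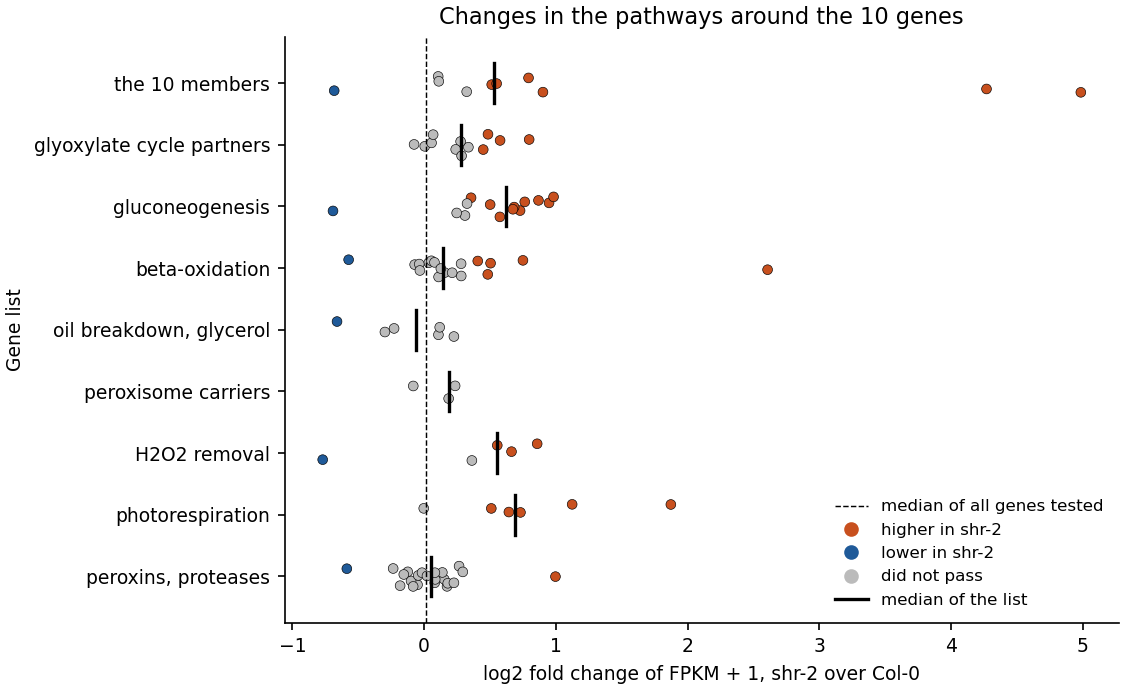
Log2 fold change of FPKM + 1 (shr-2 over Col-0) of every tested gene, with 1 row per list, points coloured by call and spread vertically for legibility, the black bar at the list's median and the dashed line at the median of all 19920 genes, 0.01. The medians run from -0.06 for oil breakdown to 0.69 for photorespiration, and ICL, MLS and KAT5 lie beyond 2.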

How the data were processed

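Poly(A) RNA of 2 Col-0 and 2 shr-2 libraries was analysed, grouped by their titles. The submitters' processing notes list TopHat2 2.0.13, Cuffdiff 2.2.0 and CASAVA 1.8.2 with the TAIR10 build, and Araport11 gene models are named per the file headers. The labels name a TruSeq stranded kit. The authors deposited FPKM values per gene and library. Their comparison table, quoted as the authors' deposited table, holds mean FPKM, log2 fold changes, an unsigned fold (ratio), q-values and p-values, and the score of the test. FPKM is relative to each library's total, so a change in total RNA is not seen, and any further scaling is a step not given in the sources used here.

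Values were converted to log2(FPKM + 1), which understates the change of low genes. SHR and all genes whose mean reached 1 FPKM entered a 2-sided limma fit of genotype (limma 3.58.1, R 4.3.3, mean-variance trend, residual degrees of freedom 2, prior 3.02), adjusted over all 19920 genes. Tested on simulated data, the fit recovered 0 of 50 genes changed by a log2 of 0.5. Far fewer genes changed there than were called here, so that share does not carry over to these data. A gene that did not pass may still have changed. Named genes were the 10 genes, SHR, close copies found with blastn 2.17.0, and up to 3 called genes per direction of each list by smallest adjusted p, or 2 of highest FPKM where none was called. The 10 genes, lists and tests were chosen with earlier results of these data known. Alternatives were another pseudocount, no filter, median-ratio scaling, the replicate number as a block and each library left out. All 32538 identifiers matched RefSeq TAIR10.1, which gave coordinates and sequences. Depth was estimated from the lowest values within a window of 0.025 to 0.06 FPKM at 1 kb, which bounds the estimate. A gene that the naming rule selects is not reported here.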

Additional observations from a re-analysis of the deposited data

How the results depend on the processing

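All genes called numbered 5503. Leaving out 1 library gave 2058 to 3843 calls over all genes, 4 to 6 of the 10 genes beside 7, and 5 to 23 of the 86 further pathway genes beside 33. The single library then left in a genotype is assumed to vary like the others, and fewer samples are fitted. Over 37 named genes and 8 alternatives, 235 values kept their direction and side of the threshold, 58 fell short of it, 3 passed it and 0 reversed. A pseudocount of 0.1 and median-ratio scaling left 7 of the 10 genes called, and no filter 6. Same-numbered libraries share a number without a stated batch. With 2 pairs, their deviations from the group means correlated at 0.305. With the replicate block, 8729 of all genes, 8 of the 10 genes and 48 of the pathway genes were called, KAT2, PXN and PMDH1 passing. The cause was not tested. Depth limits the values of PCK2, ACX6 and CSY1, which rest on few fragments or none.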

Other observations

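Most of the listed enzymes of photorespiration that share the peroxisome with beta-oxidation were higher in shr-2. Of 6 tested, 5 rose, 0 fell and 1 missed the threshold, and the median log2 fold change was 0.69. That is 83.3% called beside 27.6% of all genes, of which 13.9% were higher and 13.7% lower. GLO1 (AT3G14420), a glycolate oxidase, read 47.4 and 48.8 FPKM in Col-0 and 158 and 203 FPKM in shr-2, a log2 fold change of 1.87 (limma, adjusted p = 0.00168), and passed whichever library was left out. GGT1 (AT1G23310), a glutamate:glyoxylate aminotransferase, read 55.8 and 61.9 FPKM in Col-0 and 113 and 148 FPKM in shr-2 (limma, log2 fold change 1.12, adjusted p = 0.00706). GLO2 (AT3G14415) read 86.0 and 83.2 FPKM in Col-0 and 127 and 139 FPKM in shr-2 (log2 fold change 0.64, limma, adjusted p = 0.00913). Leaving out either Col-0 replicate left 1 of the 5 calls, leaving out shr-2 replicate 1 left 4 and leaving out its replicate 2 left 3.

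The peroxide formed by acyl-CoA and glycolate oxidases is removed by catalase and ascorbate peroxidase. The list held CAT1, CAT2, CAT3, APX3 and also MDAR4, which is neither. Of these 5 genes 3 rose and 1 fell, which is 80% called beside 27.6% of all genes. The median log2 fold change of the 5 was 0.56. Their summed FPKM went the other way, from 2518 and 2917 in Col-0 to 1675 and 2058 in shr-2. CAT3 made up 93.7 and 94.1% of the catalase FPKM in Col-0 and 83.8 and 82.9% in shr-2. CAT3 (AT1G20620), the most abundant of the listed peroxisomal genes, read 2269 and 2660.1 FPKM in Col-0 and 1294 and 1605 FPKM in shr-2 (limma, log2 fold change -0.77, adjusted p = 0.0284), a call lost without the filter on low values, at adjusted p = 0.0853. CAT2 (AT4G35090) read 140.03 and 152 FPKM in Col-0 and 230.4 and 305 FPKM in shr-2 (log2 fold change 0.86, limma, adjusted p = 0.0175), CAT1 (AT1G20630) 13.3 and 14.7 against 20.6 and 25.2 FPKM, and APX3 (AT4G35000) 34.1 and 36.5 against 51.3 and 53.3 FPKM. The ratio of CAT3 to CAT2 was 16.2 and 17.5 in Col-0 and 5.61 and 5.26 in shr-2. Leaving out either Col-0 replicate left 0 of the 4 limma calls, leaving out shr-2 replicate 1 left 3 and leaving out its replicate 2 left 2, and the authors' deposited table called 4.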
